A study of Mus musculus with 6 samples.

Results

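The Reg family was followed in sorted mouse pancreatic acinar cells with and without cerulein. The members were chosen by gene symbol and comprise 7 of the 21949 genes measured: Reg1, Reg2, Reg3a, Reg3b, Reg3d, Reg3g and Reg4. The WT group held 3 libraries and the WT+Cerulein group held 3, and all came from adult CD1-enriched mice that carried ElastaseCreER, a Cre driven by the elastase promoter of acinar cells, and a ROSA26YFP reporter. Cerulein, a peptide that acts like cholecystokinin and in excess causes pancreatitis, was injected 7 times on each treatment day, with treatment on alternate days within a span of 3 days. Cells were taken after a further 1 day without injections. The labels give no treatment for the WT mice, and the cerulein dose is left out because its labelled unit is implausible. Libraries were numbered within each group without a statement that each came from its own mouse, so the error behind each p-value is that between libraries and may be purely technical.

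Reg proteins are small secreted proteins with a C-type lectin fold. Acinar cells are their main source in the pancreas, and several were first known as pancreatic stone protein (the Reg1 type) or pancreatitis-associated proteins (the Reg3 type). In the mouse gut, Reg3b and Reg3g bind bacteria, and cytokines of the interleukin-6 and interleukin-22 type raise Reg3 genes through the transcription factor STAT3.

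Reg3b was higher after cerulein, and so was Reg3g with its values as restored. Reg3a was higher too at both settings of its 1 unplaced value that stand for whole fragments, with its other values as restored. No call was made for Reg1, Reg2 or Reg3d, and Reg4 was near the detection limit. Levels are FPKM, a fragment count per length of transcript and per size of library, summed over the 14 listed transcripts of the 7 genes. The deposited table had lost the decimal mark of many values, so such a value can stand for 2 or 3 levels a factor of 10 apart. Marks were restored from the whole number of fragments behind each FPKM together with the levels of the other libraries of the same group. Of the 42 member values 30 were intact or restored, and the other 12 are given with the lowest and highest level that any placement allows.

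Of the 7 genes 6 lie in 1 cluster of 98.2 kb on chromosome 6, chr6:78370657-78468872 in mm10, and Reg4 lies at chr3:98222156-98236748. From the low end, the order was Reg3b, Reg3d, Reg3a, Reg2, Reg1 and Reg3g. Reg3d and Reg3g are on the minus strand and the other genes of the cluster on the plus strand. Reg3d thus lies between Reg3b and Reg3a, and Reg2 and Reg1 lie between Reg3a and Reg3g. The leading transcript of every member has 6 exons and between 157 and 175 codons. In their coding sequences Reg1 and Reg2 were the most alike pair (82.6% identity over aligned bases), and Reg3b was 76.5% identical to Reg3a and 76.4% to Reg3g. The longest run of identical bases between any pair of leading transcripts was 35 bases, in Reg3b and Reg3g, against mean fragment lengths of 160 to 208 bases fitted for the libraries. How reads that fit more than 1 member were counted is not given in the sources. No other coding gene overlapped a member. The nearest coding genes outside the family were 391 kb and 1349 kb away: Ctnna2, listed at 0.183, 0 and 0 FPKM in WT and at 0, 0 and 0.0285 in cerulein libraries, and Gm20594, whose mark was not placed in WT library 2.

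**Figure D1:**
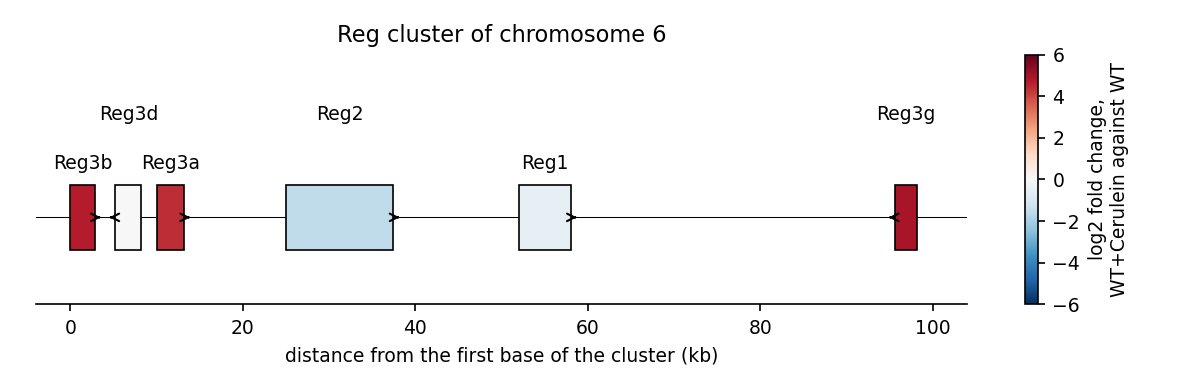
Map of the 6 Reg genes of chromosome 6, with distance from the first base of the cluster in kb on the horizontal axis, arrows for the direction of transcription, and colour for the log2 fold change of FPKM + 1 between WT+Cerulein and WT at the most probable placement of open marks. The 3 red genes (Reg3b, Reg3a and Reg3g, between 4.45 and 4.95) are interleaved with Reg3d, Reg2 and Reg1, which lie between -1.54 and -0.05.

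The 250 bases before the RefSeq start are printed for Reg3b, Reg3g, Reg3a and Reg3d, the neighbour between Reg3b and Reg3a that was not called. Reg3a and Reg3g are taken here as higher under the conditions on their values given above. In the GENCODE annotation used for the levels, the leading Reg3b transcript starts at 78370861 and another at 78370657. Each of these starts lies inside the printed Reg3b stretch, so part of it is transcribed by that annotation. They are from RefSeq, build GRCm38.p6, read 5′ to 3′ on the strand of the gene, for Reg3b at chr6:78370635-78370884 (plus), Reg3a at chr6:78380459-78380708 (plus), Reg3g at chr6:78468875-78469124 (minus) and Reg3d at chr6:78378866-78379115 (minus). Capitals mark TTCNNNGAA, the spaced palindrome that STAT factors bind, and CACCTG, an E-box of the type bound by acinar bHLH factors.
Reg3b: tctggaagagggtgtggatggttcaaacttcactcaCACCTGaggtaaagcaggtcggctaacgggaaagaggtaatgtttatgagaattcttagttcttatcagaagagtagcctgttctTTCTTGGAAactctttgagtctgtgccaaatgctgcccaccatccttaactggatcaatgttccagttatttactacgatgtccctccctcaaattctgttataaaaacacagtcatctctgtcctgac
Reg3a: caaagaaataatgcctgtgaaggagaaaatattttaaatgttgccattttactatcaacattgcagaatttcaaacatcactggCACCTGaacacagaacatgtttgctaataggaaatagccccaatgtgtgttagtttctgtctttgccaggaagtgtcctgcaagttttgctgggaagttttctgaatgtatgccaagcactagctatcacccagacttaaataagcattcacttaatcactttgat
Reg3g: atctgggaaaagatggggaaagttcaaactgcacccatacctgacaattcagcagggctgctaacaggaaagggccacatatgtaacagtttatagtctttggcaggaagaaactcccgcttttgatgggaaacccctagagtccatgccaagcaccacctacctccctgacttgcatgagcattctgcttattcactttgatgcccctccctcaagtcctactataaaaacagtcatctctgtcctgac
Reg3d: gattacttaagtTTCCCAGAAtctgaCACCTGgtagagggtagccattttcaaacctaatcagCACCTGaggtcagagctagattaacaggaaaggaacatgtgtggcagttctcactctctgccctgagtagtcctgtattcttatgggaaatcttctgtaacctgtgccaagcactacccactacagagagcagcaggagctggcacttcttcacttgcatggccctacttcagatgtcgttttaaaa

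Counted from the base before the start as -1, TTCNNNGAA was found in Reg3b, from -129 to -121, and in Reg3d, from -238 to -230. Over both strands, 2 of the 7 Reg promoters and 7.02% of 32851 promoters held it. CACCTG was found in 5 of the 7 (Reg2, Reg3a, Reg3b, Reg3d and Reg4) and in 17.2% of all promoters. TGGGAA, the core bound by RBPJ factors, was found in 5 of the 7 (all but Reg3b and Reg4) and in 21.6% of all promoters. In Reg3d 1 TGGGAA match, on the other strand, overlaps the TTCNNNGAA match. Reg3d held all 3 motifs, so none of them could set the other printed genes apart from it. None was found in all of Reg3a, Reg3b and Reg3g. The longest run shared by any pair of the 7 promoters was the last 20 bases before the start in Reg3b and Reg3g, acagtcatctctgtcctgac. In Reg3b these 20 bases lie before the RefSeq start but inside the leading GENCODE transcript. The next longest runs were of 12 bases, 1 between Reg3a and Reg3d and 1 between Reg3d and Reg3g.

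Reg3g, which in the mouse gut acts on Gram-positive bacteria, had a level that could be restored in every library. It measured 0.934, 7.09 and 10.4 FPKM in WT libraries 1, 2 and 3, which stand for 2, 17 and 27 fragments. In cerulein libraries 1, 2 and 3 it measured 155, 205 and 161 FPKM, from 1168, 1862 and 1723 fragments. With the marks as restored, every cerulein library lay above every WT library. The mean was 6.13 ± 4.79 FPKM in WT and 174 ± 27.2 FPKM in cerulein libraries (SD, n = 3 each), a ratio of 28.3. On the scale of log2(FPKM + 1), which understates changes of low levels, the fold change was 4.95 (SE 0.56, limma adjusted p = 0.00046 over 5852 tested genes). Reg3g was the 1 member called among the 3 that were restored in every library and tested, against 12.4% of all tested genes (6.97% higher and 5.40% lower). Only 10 of the 5852 tested genes had a higher fold change. The 3 cerulein values and that of WT library 1 were fixed by whole fragments or by an intact mark, while WT libraries 2 and 3 also rested on the closeness of replicates. Over the 6 placements that whole fragments alone allow (within 0.01 of a whole number), the fold change ran from 1.73 to 4.95. Of the 6, 3 passed, and in 4 every cerulein library was above every WT library.

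Reg3b, pancreatitis-associated protein 1, had the highest cerulein level of the 3 genes Reg3a, Reg3b and Reg3g. In WT library 2 it measured 125 FPKM, from 306 fragments. WT libraries 1 and 3 were not placed, at 3.21, 32.1 or 321 FPKM in library 1 and between 5.77 and 577 FPKM in library 3. In the cerulein libraries the sum of its 3 listed transcripts lay between 1124 and 1262, between 2068 and 2431, and between 1580 and 1896 FPKM. The leading transcript alone, whose mark was intact in all cerulein libraries, measured 1122, 2061 and 1577 FPKM there. Every cerulein library therefore lay above every WT library wherever the open marks are set, and at the least favourable setting the lowest cerulein library was still 1.95 times the highest WT library. Among all tested genes 17.3% had every cerulein library above every WT library. With each of the 1458 placements of the open marks entered in turn, the log2 fold change ran from 2.43 to 6.88 and the limma adjusted p from 0.000177 to 0.0499. The most probable placement gave 4.70 (SE 0.46), but it was not certain enough to be accepted. With the mark of WT library 2 freed as well, all 4374 placements kept every cerulein library above every WT library, and 4160 of them passed (limma adjusted p of up to 0.104).

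Reg3a, named pancreatitis-associated protein 2 in the rat, was the lowest of the 3 in WT cells. It measured 0.429, 3.06 and 3.51 FPKM in WT libraries 1, 2 and 3, from 1, 8 and 10 fragments. Cerulein libraries 1 and 2 measured 83.6 and 122 FPKM, from 686 and 1213 fragments. Cerulein library 3 was not placed, and could stand at 2.53, 25.3 or 253 FPKM, of which 25.3 (297 fragments) and 253 (2970 fragments) are whole numbers of fragments and 2.53 is not. Cerulein libraries 1 and 2 lay above all WT libraries, and library 3 did so at 25.3 and 253 FPKM but not at 2.53. The log2 fold change was 4.45 (SE 0.59) at 25.3 FPKM, 5.54 (SE 0.51) at 253 FPKM and 3.48 (SE 1.08) at 2.53 FPKM. The limma adjusted p was 0.0012, 0.000125 and 0.0616 in that order. With cerulein library 3 left out, Reg3a was restored in every remaining library and its fold change was 5.10 (SE 0.53, limma adjusted p = 0.000234). WT libraries 2 and 3 and cerulein library 1 also rested on the closeness of replicates. Over the 24 placements that whole fragments alone allow, the fold change ran from 1.37 to 6.64, 14 of the 24 passed, and in 10 every cerulein library was above every WT library.

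**Figure D2:**
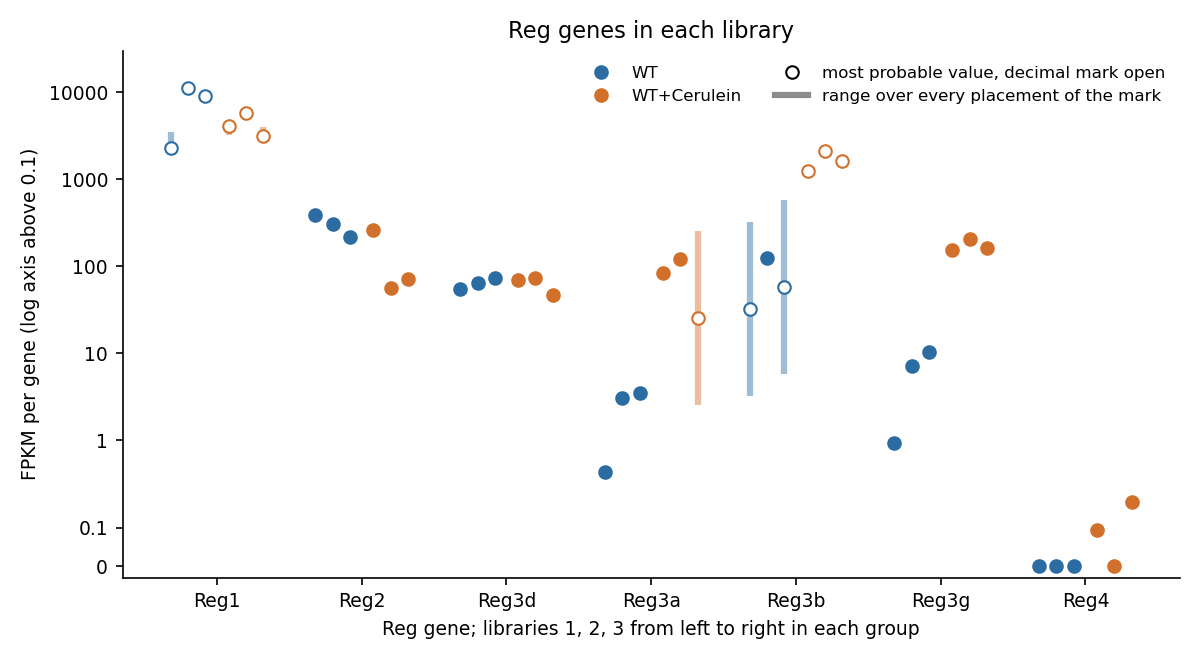
FPKM of each Reg gene in each library, with a logarithmic vertical axis above 0.1 FPKM, WT libraries in blue and WT+Cerulein libraries in orange, each set from library 1 to 3. Filled points are intact or restored values, open points are the most probable value of an open mark, and bars span every placement; cerulein points lie above WT points for Reg3b and Reg3g, and the groups overlap for Reg1, Reg2 and Reg3d.

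Reg1, the pancreatic stone protein type, had the highest level of the family in every library. No total of its 3 transcripts could be settled to 1 value, but each was bounded closely. In WT libraries 1, 2 and 3 it lay between 2183 and 3544, between 10996 and 11853, and between 8182 and 9154 FPKM. In cerulein libraries 1, 2 and 3 it lay between 3196 and 4320, between 5852 and 6216, and between 3107 and 4014 FPKM. WT library 1 was the low library of its group and lay within or below the range of the cerulein libraries, and WT libraries 2 and 3 lay above all cerulein libraries. The leading transcript, intact in all libraries, measured 6239 ± 3526 FPKM in WT and 4043 ± 1564 in cerulein libraries (SD, n = 3 each). Over all 118098 placements the log2 fold change of the gene ran from -0.91 to -0.29 and the limma adjusted p from 0.261 to 0.779. Without WT library 1 the fold change at the most probable placement moved from -0.54 to -1.25 (limma adjusted p = 0.0734). It was 0.05 when each library was scaled to its sum outside the digestive enzymes and the Reg genes. That sum was taken only over genes placed in all 6 libraries (18853 of 21949 genes before the enzymes and Reg genes were left out).

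The listed transcripts of Reg1 differ in where they begin. Of the 3, 2 begin upstream of the leading transcript, the farther one by 3272 bases. In WT library 2 the upstream transcripts held between 23.8% and 29.3% of the Reg1 FPKM, of which 2609 FPKM in 1 transcript was an intact value. They held at most 10.8% in WT library 3, 5.92% in cerulein library 2 and 22.8% in cerulein library 3. WT library 2 therefore had a higher upstream share than these 3 libraries at every placement. The share could reach 38.8% in WT library 1 and 26.3% in cerulein library 1, so those were not resolved. The share is an estimate by the tool behind the FPKM, which had to divide fragments between overlapping transcripts.

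Reg2, the close relative of Reg1, measured 387, 311 and 218 FPKM in WT libraries 1, 2 and 3 and 259, 56.4 and 71.5 FPKM in cerulein libraries 1, 2 and 3. Cerulein libraries 2 and 3 lay below all WT libraries, while cerulein library 1 lay between WT libraries 2 and 3. The means were 305 ± 84.6 FPKM in WT and 129 ± 113 in cerulein libraries (SD, n = 3 each). The log2 fold change was -1.54 (SE 0.52), which did not pass (limma adjusted p = 0.0821). It depended on single libraries, at -2.21 (SE 0.38, limma adjusted p = 0.00997) without cerulein library 1 but -1.12 (limma adjusted p = 0.339) without cerulein library 2 and -1.29 (limma adjusted p = 0.273) without cerulein library 3. With all libraries it passed with a filter at a mean of 5 FPKM, with the replicate number as a block and with limma-voom on the fragments (limma adjusted p = 0.0373, 0.0323 and 0.0384), and under the sum scaling named above it was -0.95 (limma adjusted p = 0.197). Of the 4 placements that whole fragments alone allow none passed, and they ran from -1.54 to 0.66. With 0.05 of a fragment counted as whole, as first set, there were 8, which ran up to 2.69, and none passed.

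Reg3d, a member expressed in mouse pancreas and related to islet neogenesis-associated protein, measured 54.6, 64.7 and 74.3 FPKM in WT libraries 1, 2 and 3. It measured 68.9, 73.5 and 47.0 FPKM in cerulein libraries 1, 2 and 3. The groups overlapped, with means of 64.5 ± 9.83 and 63.1 ± 14.1 FPKM (SD, n = 3 each). The log2 fold change was -0.05 (SE 0.31, limma adjusted p = 0.939), and it was 0.54 under the sum scaling named above. Over the 32 placements that whole fragments alone allow, it ran from -2.25 to 3.26, and 1 of the 32 passed, higher after cerulein. Reg3d lies between Reg3b, which was higher after cerulein, and Reg3a. The latter was higher at the whole-fragment settings of its unplaced value, with its other values as restored.

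Reg4, the most distant member and best known from the gut, was listed at 0 in all 3 WT libraries. It measured 0.0935 FPKM (1 fragment) in cerulein library 1, 0 in library 2 and 0.194 FPKM (3 fragments) in library 3. A count of 0 allows up to 3 fragments, which is 0.806 to 0.994 FPKM in WT libraries, so no difference was detectable at this depth. Such limits cover counting error only. Reg4 was below the filter of at least 1 FPKM in at least 3 libraries and was not tested.

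**Figure D3:**
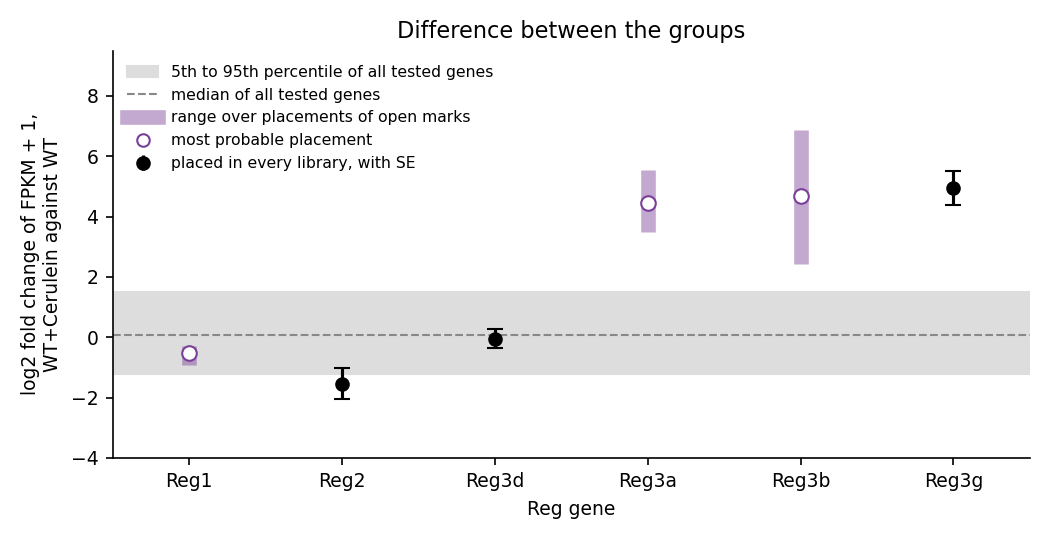
Log2 fold change of FPKM + 1, WT+Cerulein against WT, for the 6 Reg genes above the filter. Black points with SE are restored in every library, purple bars span every placement of open marks with the most probable one as an open point, and the grey band holds the 5th to 95th percentile of the 5852 tested genes (-1.23 to 1.49); the bars of Reg3a and Reg3b and the point of Reg3g lie above the band.

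FPKM is scaled by transcript length, so levels can be ordered between members. In WT cells Reg1 stood first in every library. With restored values taken as placed, Reg2 came next in WT libraries 1 and 2 at every setting of the open marks, and in WT library 3 unless the open marks of Reg3b are set at their highest (577 FPKM against 218 FPKM of Reg2). Whole fragments alone would also allow 38.7 FPKM for Reg2 in WT library 1, below Reg3d there. Reg3b (125 FPKM) was above Reg3d (64.7 FPKM) in WT library 2, and the pair could not be ordered in WT libraries 1 and 3. Reg3g and Reg3a lay below Reg3d with overlapping ranges, Reg3b could lie below Reg3g in WT library 3 (5.77 against 10.4 FPKM), and Reg4 was last. After cerulein Reg1 was still first and Reg3b came next, and their ranges over the 3 libraries did not overlap (at least 3107 against at most 2431 FPKM). Reg3g, Reg2, Reg3a and Reg3d followed with levels that overlapped between neighbours, and Reg4 was last.

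The make-up of the family differed between the groups at every placement of the open marks, with restored values taken as placed. Together Reg3a, Reg3b and Reg3g held between 0.115% and 10.9%, between 1.09% and 1.18%, and between 0.208% and 6.52% of the summed Reg FPKM in WT libraries 1, 2 and 3. They held between 22.7% and 29.9%, between 27.4% and 31.6%, and between 29.7% and 41.7% in cerulein libraries 1, 2 and 3. The lowest cerulein share was thus above the highest WT share. The ratio of Reg3b to Reg1 was at most 0.147 in WT and at least 0.26 in cerulein libraries. The sum over the family overlapped between the groups, at 2630 to 12363 FPKM in WT and 4887 to 9104 FPKM in cerulein libraries. Such shares within a library do not depend on how the libraries are scaled to each other.

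**Figure D4:**
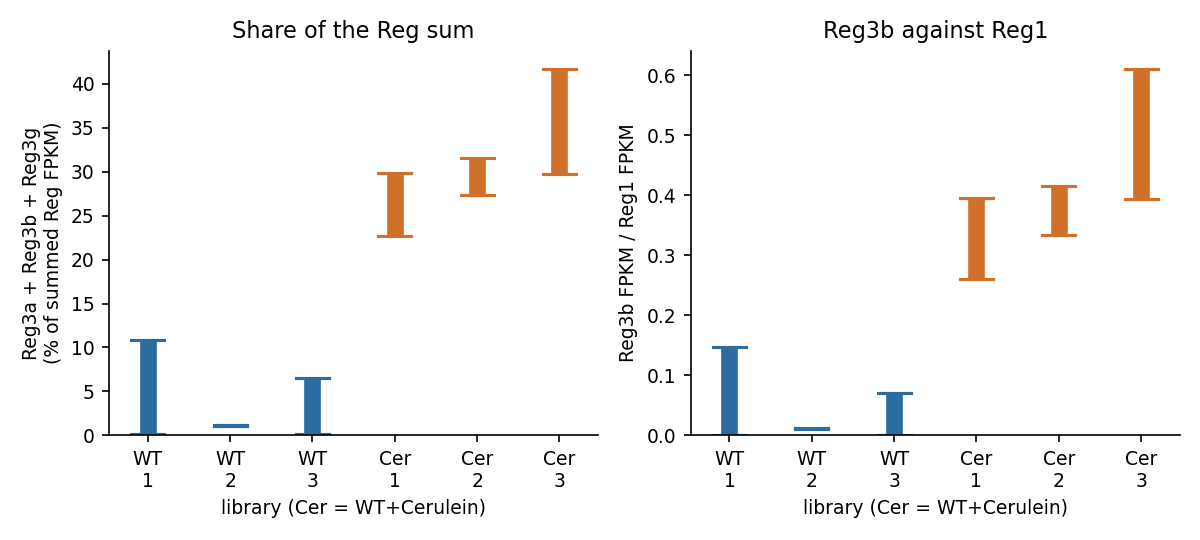
Left, the share of Reg3a, Reg3b and Reg3g in the summed Reg FPKM of each library in percent; right, the ratio of Reg3b to Reg1 FPKM in each library. Bars span every placement of open decimal marks and carry no sampling error; the 3 cerulein bars start at 22.7% and at 0.26, above the tops of the WT bars at 10.9% and 0.147.

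By the likeness of profiles (root mean square difference of centred log2(FPKM + 1) over the 6 libraries, among tested genes), the genes nearest to Reg3g were Dstn at 0.70, Rnf138 at 0.83 and Tac1 at 0.89. Dstn encodes the actin-severing protein destrin, Rnf138 a ubiquitin ligase and Tac1 the precursor of substance P. Nearest to Reg2 were Tor2a at 0.32, Prom2 at 0.36 and Cdhr2 at 0.40. Nearest to Reg3d were Zscan29 at 0.08, Lyplal1 at 0.11 and Mbd3 at 0.11.

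Among the cytokines, receptors and transducers that raise Reg genes in other settings, 23 of 35 listed genes were tested, and 7 were higher, 2 lower and 14 did not pass, beside 6.97% higher and 5.40% lower among all tested genes. Their median log2 fold change was 0.49, against 0.09 over all tested genes. Il1b, an inflammatory cytokine, measured 1.43, 0 and 0 FPKM in WT and 50.1, 25.6 and 45.2 FPKM in cerulein libraries (log2 fold change 4.89, SE 0.42, limma adjusted p = 7.57e-05). Lif, an interleukin-6-type cytokine, measured 0.157, 0 and 0 FPKM in WT and 2.83, 4.11 and 7.17 FPKM in cerulein libraries (log2 fold change 2.37, SE 0.34, limma adjusted p = 0.00182). For Il1b every cerulein library was above every WT library with its marks as restored. Lif was below 1 FPKM in every WT library, so it could pass the filter only through its cerulein libraries. Its separation of the groups was thus fixed by the filter. Placements of Il1b range from 0 to 143 FPKM in WT and from 2.56 to 501 FPKM in cerulein libraries. Tnf and the interferon gamma receptor chain Ifngr1 were higher by 1.75 and 1.60, with limma adjusted p of 0.0366 and 0.0411. Those calls were lost without WT library 2 or 3 or cerulein library 2 or 3, with a pseudocount of 0.1 and with no filter, and that of Tnf also under limma-voom, with adjusted p of up to 0.159 and 0.191 over all settings.

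The interleukin-22 receptor chain Il22ra1, through which interleukin-22 reaches epithelial cells, fell. It measured 11.4, 13.4 and 11.8 FPKM in WT and 5.5, 3.12 and 2.21 FPKM in cerulein libraries, so every cerulein library was below every WT library. Its log2 fold change was -1.57 (SE 0.33, limma adjusted p = 0.0127), and the call was lost without cerulein library 2 or 3 (adjusted p of up to 0.101 over all settings). These values hold for the marks as restored. Placements of Il22ra1 range from 1.14 to 134 FPKM in WT and from 2.21 to 550 FPKM in cerulein libraries, and the others were not entered. Il22 itself was listed at 0 in every library. The other called genes of this list were Il6, Nfil3, Jak2 and Il10rb, with log2 fold changes of 1.49, 1.54, 1.36 and -1.28 at their restored values. Their limma adjusted p was 0.0302, 0.00872, 0.0404 and 0.0366. They passed in 8 of 15, 16 of 16, 8 of 15 and 9 of 16 settings, in that order. Il6st, the shared signalling chain of the interleukin-6 family, had a log2 fold change of 0.30 and Stat3 one of 0.39, and neither passed (limma adjusted p = 0.586 and 0.408). Under the sum scaling they were 0.82 and 0.92, and Stat3 passed there (limma adjusted p = 0.0402). Stat3 measured 7.37, 7.61 and 6.05 FPKM in WT and 8.84, 9.37 and 10.3 FPKM in cerulein libraries. Jak1, a kinase of these receptors, had a log2 fold change of 0.35 (limma adjusted p = 0.453), and it too passed under the sum scaling alone of 14 settings (0.90, limma adjusted p = 0.041). Osmr, the oncostatin M receptor, had one of 1.18 (limma adjusted p = 0.104), and it passed in 3 of 15 settings, with values of 0.92 to 3.41 over all of them. Socs3, a feedback inhibitor and STAT3 target, could not be restored in WT libraries 2 and 3. It measured 24.9 FPKM in WT library 1 and 5.97, 9.41 and 10.5 FPKM in cerulein libraries, and was not tested.

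With marks as restored, Extl3, a glycosyltransferase proposed as the receptor of Reg proteins, fell, while Reg3b and Reg3g were higher. It measured 40.2, 35.0 and 32.7 FPKM in WT libraries 1, 2 and 3 and 9.41, 4.77 and 4.89 FPKM in cerulein libraries 1, 2 and 3. With the marks as restored, every cerulein library was below every WT library, as in 14.4% of all tested genes. The log2 fold change was -2.38 (SE 0.33, limma adjusted p = 0.00136), and it passed in all 16 settings tried, between -2.66 and -1.84. None of these settings entered every placement of its marks. Placements of Extl3 range from 3.27 to 402 FPKM in WT and from 4.77 to 941 FPKM in cerulein libraries. Of the 5 listed receptors and partners 2 were tested, and the other, the proteoglycan Sdc4, did not pass (log2 fold change 0.48, limma adjusted p = 0.326) except under the sum scaling (1.02, limma adjusted p = 0.0354).

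Of 29 other secreted antimicrobial and mucosal defence proteins only 4 were tested, and 1 was higher, beside 6.97% of all tested genes. Lcn2, which binds bacterial siderophores, measured 3.40, 0 and 0 FPKM in WT and 31.4, 30.1 and 17.3 FPKM in cerulein libraries (log2 fold change 4.01, SE 0.54, limma adjusted p = 0.00133). All cerulein libraries were above all WT libraries with the marks as restored. Placements of Lcn2 range from 0 to 340 FPKM in WT and from 1.73 to 314 FPKM in cerulein libraries, and the others were not entered. The secreted scavenger receptor Dmbt1 measured between 2781 and 3775 FPKM in WT and between 1202 and 2065 FPKM in cerulein libraries, which did not pass (log2 fold change -1.11, limma adjusted p = 0.0614) but passed in 3 of 16 settings. Muc1 did not pass either (-1.01, limma adjusted p = 0.123). The gut proteins Ang4 and Retnlb and the cathelicidin gene Camp were listed at 0 in every library, and were named after their values were seen. Of the untested genes, Zg16 and Pla2g1b were lower after cerulein at every placement. Zg16 measured at least 4721 FPKM in WT and at most 1170 in cerulein libraries, and Pla2g1b at least 4714 and at most 2799. Ltf, Saa3, Ptx3, Chil3 and Hamp were listed higher at every placement, but at no more than 0.164 FPKM in WT libraries, where depth limits low levels. These too were named after their values were seen.

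Of 30 C-type lectins and related proteins of other families 9 were tested, and 3 were higher, beside 6.97% of all tested genes: Clec10a by 2.78, Mrc1 by 1.81 and Clec9a by 1.56 (limma adjusted p = 0.00543, 0.0149 and 0.0117). Each is a receptor of macrophages or dendritic cells, and Mrc1 is also in the macrophage marker list. Clec10a and Clec9a reached at most 0.104 and 0.0911 FPKM in WT libraries. They could thus be tested only with every cerulein library at 1 FPKM or more, so their separation of the groups was fixed by the filter. All 3 calls were lost with no filter on low levels. That of Mrc1 was also lost without WT library 2 or cerulein library 2 or 3, and that of Clec9a under limma-voom. Over all settings the adjusted p reached 0.0536 for Clec10a, 0.0885 for Mrc1 and 0.169 for Clec9a. Clec2d (0.18) and Vcan (1.53) did not pass, with limma adjusted p of 0.819 and 0.128. Clec2d ran from -0.08 to 0.69 over the settings, and Vcan passed in 3 of 14.

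**Figure D5:**
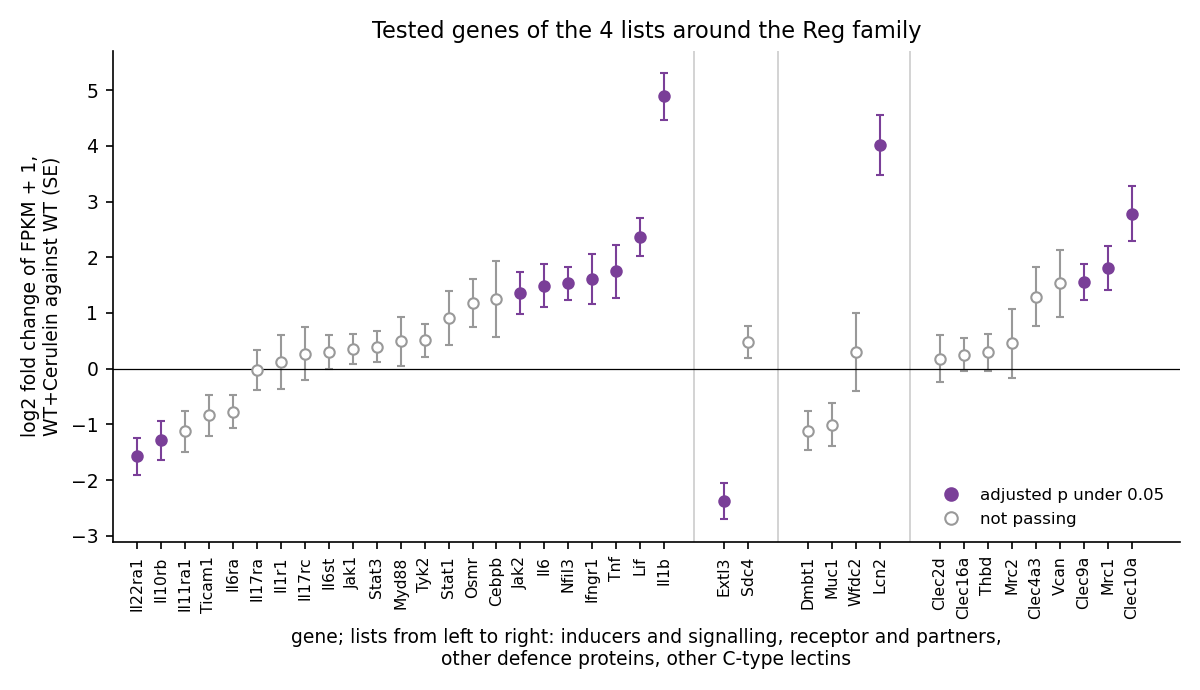
Log2 fold change of FPKM + 1 with SE, WT+Cerulein against WT, for the 38 tested genes of the 4 lists, grouped by list along the horizontal axis; filled purple points have a limma adjusted p under 0.05. Il1b (4.89) and Lcn2 (4.01) are the highest points and Extl3 (-2.38) is the lowest.

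Markers of several cell types moved with the groups. Among all tested genes 6.97% were higher and 5.40% lower. Of 11 acinar markers 11 were tested, and 8 were lower and none higher, with a summed FPKM of 250584 to 274724 in WT and 36891 to 68249 in cerulein libraries. Sums are over the markers placed in every library, which were 11 of 11 acinar, 10 of 16 macrophage, 8 of 10 fibroblast and 7 of 8 duct markers. Of 9 tested macrophage and myeloid markers 6 were higher, with list sums of 1.43 to 28.0 against 63.0 to 115 FPKM. Of 7 tested fibroblast markers 5 were higher, with list sums of 1.74 to 42.1 against 209 to 308 FPKM. Of 6 tested duct markers 3 were higher and 1 lower, and of 3 tested islet markers none passed. No neutrophil or endothelial marker was tested, and Ly6g was at 0 in every library. WT library 1 had the highest sum of its group for every marker list but the acinar one, with 28.0 against 8.51 and 1.43 FPKM for macrophage and 281 against 124 and 126 FPKM for duct markers. In WT most of the duct sum was Muc1, at 230, 91.7 and 101 FPKM in libraries 1, 2 and 3. In cerulein libraries 1, 2 and 3 Muc1 measured 79.2, 64.0 and 50.9 FPKM, of duct sums of 230, 209 and 185 FPKM. The 15 intestinal markers summed to 0.179 to 28.3 FPKM in WT and 3.24 to 8.45 FPKM in cerulein libraries. Of the 2 intestinal markers tested 1 was higher, and Defa21 and Mptx2 were at 0 in every library. In bulk RNA, fewer cells of a type and less RNA per cell cannot be told apart, and the part of these shifts in the Reg results was not tested.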

How the data were processed

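RNA of FACS-sorted acinar cells was depleted of ribosomal RNA and made into libraries with a NEBNext kit, per the labels' protocols. Per the submitters' processing notes, fastp, HISAT2, featureCounts, DESeq2 and build mm10 were used, with no versions stated; which tool gave the FPKM is not given there. The deposited values are other than plain FPKM: between 18.05% and 21.4% of the 50660 transcript values of a library had lost their decimal mark, so the planned FPKM test was applied to restored values.

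For each library a mean fragment length and a scale were fitted on intact values of GENCODE vM21 transcripts of at least 800 bases, after which 73.7% to 79.7% of these values lay within 0.01 of a whole fragment. For transcripts of 780 bases 1 FPKM stood for 2.17 to 2.64 fragments in WT and 7.64 to 10.9 in cerulein libraries. Placements were weighed by whole fragments and by a replicate spread of 0.6 log2 units within a group, and accepted at a posterior of 0.95, with totals within 5% taken as the same value. Because replicates weigh in, p-values may be too small. Of 425 intact values treated as lost 316 were placed, and 314 of these were right. Right were 248 of 248 placed at 1 to under 10 FPKM, 33 of 35 at 10 to under 100 and 33 of 33 at 100 to under 1000. The share placed was 79.5%, 67.3% and 54.1% in that order. The rule had been revised with intact values in view, so this check is not fully independent of it. Values written with an exponent were taken as 0.

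Restored FPKM were summed per gene and tested as log2(FPKM + 1) with limma 3.58.1 (R 4.3.3, trend, two-sided, Benjamini-Hochberg adjustment, threshold 0.05) on the 5852 genes placed in all 6 libraries with at least 1 FPKM in at least 3. For members with an unplaced mark the plan was bounds over every placement and no test; the adjusted p of each placement, entered in turn in the same fit, was added to it. The tolerance of 0.01 fragments behind the whole-fragment ranges of members was narrowed from 0.05 after the placements had been seen. The fits and the placement were tested on simulated data. Those for the placement held whole fragments in every gene and a replicate spread near the assumed one. That test therefore cannot show how the placement does on values without them. Sequences were compared with Biopython, from the annotation and the RefSeq promoter table, in which all 7 members were found. Genes outside the family were tested at their restored values only. Members, lists and tests were chosen with earlier results of these data known. The text names every member, at most 4 called and 2 uncalled genes of each list, 6 fixed signalling genes, the 3 nearest profiles of each restored member and the genes that flank the cluster. The other called genes of the list of cytokines, receptors and transducers were added after their values were seen.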

Additional observations from a re-analysis of the deposited data

How the results depend on the processing

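With its restored values, the call of Reg3g held in every alternative fit, with log2 fold changes from 4.18 to 5.47 and limma adjusted p of at most 0.0164, but only 3 of the 6 placements that whole fragments alone allow passed (down to 1.73, adjusted p of up to 0.526). At its most probable placement Reg3b also passed in each. The number of Reg members called was 1 of 3 tested. It was 2 with a stricter filter (mean of at least 5 FPKM), with limma-voom on the fragments and with the replicate block, where Reg2 also passed, and between 1 and 2 when a library was left out. With the open members entered at the lowest difference any placement gives, 2 of 6 passed, and 3 of 6 at the highest. The tolerance for whole fragments in member placements, set at 0.01 after seeing the data, moved the highest Reg2 value from 0.66 to 2.69 when put back to 0.05, and moved no bound of Reg3a, Reg3d or Reg3g. Reg2 could not be tested at a posterior of 0.99 or a replicate spread of 1.5 log2 units. Reg3d turned to 0.54 under scaling to the sum outside enzymes and Reg genes, and ran between -0.17 and 0.15 when a library was left out, above 0 without WT library 3 (0.06) or cerulein library 3 (0.15). Reg1 turned to 0.054 under that scaling, which moved the median of all tested genes from 0.09 to 0.49. The summed FPKM of the digestive enzymes placed in every library (32 of 41 listed) was 601831 to 635838 in WT and 104574 to 168479 in cerulein libraries.

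The 724 genes called overall became 305 with no filter, 1293 with the sum scaling and 463 with the replicate spread of 1.5, where 3963 genes were tested. Left-out libraries gave between 173 and 1294 calls: 1294 without WT library 1, 412 without WT library 2, and 381, 173 and 187 without cerulein libraries 1, 2 and 3. Higher genes were 56.4% of calls, 87.3% with the sum scaling and 42.2% with the stricter filter. The 14 of 38 list genes called became 9 with a pseudocount of 0.1, 6 with no filter, 8 under the stricter filter, 9 when a posterior of 0.99 was required and 8 with the wider spread. Without 1 library they were between 4 and 16, with 8 without WT library 2 and 4 without cerulein library 2 or 3. The posterior, spread and stricter filter settings test fewer genes, and the cause of the other differences was not tested.

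The replicate numbers were not shown to pair the libraries. Deviations from the group means correlated at 0.158, 0.13 and -0.0442 for numbers 1, 2 and 3, and number 3 did not correlate best with itself. With the replicate block 760 genes and 14 list genes were called. Depth limits the low WT levels, since 1 to 27 fragments stood behind the WT values of Reg3a and Reg3g.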
